A study of Rattus norvegicus with 8 samples.

Results

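Methylglyoxal was compared with saline in stressed rats through 4 of the 8 RNA-seq libraries of the series, taken as the prefrontal cortex (PFC) and the hippocampus under each of both treatments. All animals were adult male Sprague-Dawley rats, an outbred stock in which individuals differ genetically. The rats of both sides went through the chronic stress protocol (CMS). One side was given saline (CMS saline) and the other methylglyoxal (CMS MGO), as a daily intraperitoneal injection over the final 3 weeks of stress. The dose of methylglyoxal is given as 5 mM/kg/day in the series design and as 100 mM/kg in the sample protocol. Tissue was taken in week 7. The protocol speaks of 1 rat per treatment, so the comparison sets 2 rats against each other, each seen in 2 tissues, and PFC and hippocampus are not separate animals. An unstressed control rat given saline, and libraries from stress with luteolin (10 mg/kg/day), a plant flavonoid, make up the other 4 libraries and were used for the spread and for reference levels. The protocol names no luteolin rat. Both luteolin libraries are treated here as those of 1 rat. The CMS saline libraries carry another description code than the other 6. Treatment, rat and code therefore cannot be told apart in any difference between CMS saline and another treatment, MGO included. Between the other treatments, treatment and rat cannot be told apart.

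Methylglyoxal is a reactive dicarbonyl that arises mainly from the triose phosphates of glycolysis, is cleared by the glyoxalase system and can modify arginine and lysine residues of proteins. Chronic mild stress is a standard way to produce depression-like behaviour in rodents, and the PFC and hippocampus are regions in which stress alters dendrites, synapses and the response to glucocorticoids. The series title concerns the modification by methylglyoxal of TrkB, through which brain-derived neurotrophic factor signals, in the PFC. The comparison asks which transcripts differed between a stressed rat given methylglyoxal and a stressed rat given saline, and whether they did so in both regions.

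The table lists 31185 Ensembl gene IDs, and 12155 of them averaged 1 FPKM or more over the 8 libraries and were tested (FPKM counts fragments per kilobase of a gene model, scaled to the library's mapped fragments). The FPKM sums of the 4 libraries compared ran from 331875 to 352740. Absolute depth is unknown. The ratios of low values of the same gene placed the MGO library at 1.07 times the depth of the CMS saline library in PFC and at 1.02 times in hippocampus. These most frequent ratios were shared by few genes, 32 of 1717 with low values in PFC and 44 of 1998 in hippocampus. The IDs were matched with 0 of the 47357 genes of the symbol table used here. Genes are therefore named by ID, at most 2 in each direction. No pathway, cell type marker or tissue marker was evaluated, and no promoter is shown.

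Between the rats, 17 of the tested genes (0.14% of 12155) differed in the blocked test of MGO against CMS saline, 8 higher (0.0658%) and 9 lower (0.074%) with MGO (limma, adjusted p under 0.05). The test used log2(FPKM + 1), with tissue and treatment as terms over all 8 libraries. Its error is how much the differences between rats varied from PFC to hippocampus, so a call speaks of these 2 rats and not of methylglyoxal in rats at large. At an unadjusted p under 0.05 there were 655 genes, where 5% of the genes tested is 608. The calls rest on the libraries that were not compared: with the 4 libraries alone, 0 genes passed and the lowest adjusted p in limma was 0.209, with 546 genes at an unadjusted p under 0.05. Without both control libraries, 0 passed and 505 genes were at an unadjusted p under 0.05. Without both luteolin libraries, 7 genes passed, of which 2 were among the 17, and 814 genes were at an unadjusted p under 0.05. The fit with 4 libraries has 1 residual degree of freedom. The fits without the control or the luteolin libraries have 2, against 3 with all 8. The luteolin hippocampus library stood apart from the others of its tissue. At a mean of 100 FPKM or more, its differences from them had robust SDs (median absolute deviations, scaled to match an SD) of 0.447 to 0.576 and medians of -0.327 to -0.306, while the other hippocampus pairs had robust SDs of 0.143 to 0.194. The luteolin hippocampus library enters the error of the test and the reference levels of luteolin. Its part in the calls, beyond the counts without luteolin libraries, was not tested. The other pairs of the 4 rats in the same model gave calls in the same range: CMS saline against control gave 19 genes (0.156%) and MGO against control 20 (0.165%), with 16 (0.132%) for luteolin against CMS saline, 19 (0.156%) for luteolin against MGO and 26 (0.214%) for luteolin against control. Whether these counts differ was not tested, and the pairs share libraries.

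The genes that passed differed by large steps. The 8 higher genes had fitted differences from 1.79 to 4.75 on the log2(FPKM + 1) scale, with a median of 2.38 and SEs from 0.12 to 0.21. The 9 lower genes ran from -2.01 to -5.83, with a median of -2.80 and SEs from 0.11 to 0.42. All 17 were at least 2-fold apart in both tissues, and 5 of the higher and 8 of the lower genes were at least 4-fold apart in both. The difference in PFC and that in hippocampus of the same gene lay close together, with a median gap of 0.19 for the higher and 0.31 for the lower genes, which is what the test selects for. The 8 higher genes had a median of 2.23 FPKM in the CMS saline PFC library and 19.9 FPKM in the MGO PFC library, and of 1.96 and 23.3 FPKM in hippocampus. The 9 lower genes went from a median of 28.8 to 0.846 FPKM in PFC and from 37 to 0.128 FPKM in hippocampus. None of the 17 had a mean of 100 FPKM or more. That level was reached by only 572 of the 12155 tested genes, so the absence of calls there says nothing about level.

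**Figure D1:**
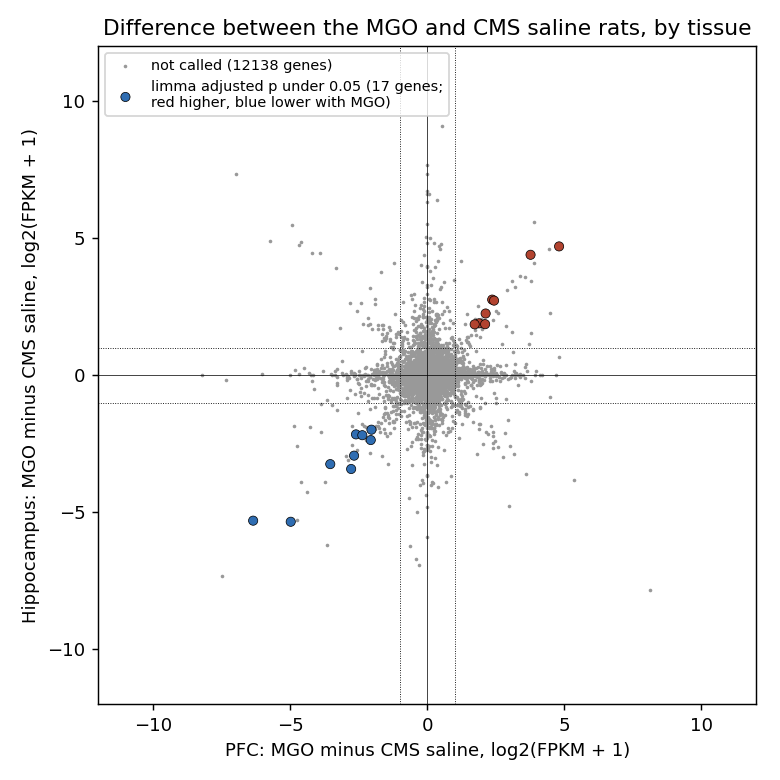
Difference between the MGO and CMS saline rats in PFC (x axis) and hippocampus (y axis), both on the log2(FPKM + 1) scale, with 1 point per gene for 12155 genes and dotted lines at 2-fold. The 17 genes that passed the test (8 red, 9 blue) lie near the diagonal, while many other genes with large differences lie along the axes, changed in a single tissue.

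The 2 higher and 2 lower genes with the largest difference shared by both tissues were followed through all 8 libraries. ENSRNOG00000014215 reached 27.1 FPKM in the PFC and 26.7 FPKM in the hippocampus of the MGO rat. In the CMS saline rat the PFC library was listed at 0 and the hippocampus library stood at 0.0738 FPKM. The control rat had 0.0758 FPKM in PFC and 2e-06 FPKM in hippocampus, and the gene was at 19.4 and 27.9 FPKM in the luteolin libraries. The MGO and luteolin libraries were thus high and the control and CMS saline libraries near 0 in both tissues. Its fitted difference was 4.75 (SE 0.19, limma adjusted p = 0.0222), and 7.68 with a pseudocount of 0.1 in place of 1, since the low side is near 0. Adjusted p ranged from 0.00557 to 0.248 over the alternatives.

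ENSRNOG00000003599 had 12.6 FPKM in the PFC and 19.9 FPKM in the hippocampus of the MGO rat and was listed at 0 in all 6 other libraries. It was the only one of these 4 genes that set the MGO rat apart from all 3 others. With a whole side listed at 0, no fold is given. The fitted difference was 4.08 (SE 0.21, limma adjusted p = 0.0332) and depends on the pseudocount, being 7.32 with 0.1 (limma adjusted p = 0.0913). Adjusted p ranged from 0.0175 to 0.26 over the alternatives.

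ENSRNOG00000043300 had 149 FPKM in the PFC and 125 FPKM in the hippocampus of the CMS saline rat, against 0.846 and 2.17 FPKM in the MGO rat. The control libraries were likewise low, with 1.63 FPKM for PFC and 0.484 FPKM for hippocampus. The luteolin libraries were high, at 125 and 75.1 FPKM. Here MGO and control lay together at the low end. The fitted difference was -5.83 (SE 0.42, limma adjusted p = 0.0332), and -6.54 with a pseudocount of 0.1 (limma adjusted p = 0.1044). Over the alternatives, adjusted p ran from 0.0322 to 0.26.

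ENSRNOG00000007830 had 70.1 FPKM in the PFC and 39.7 FPKM in the hippocampus of the CMS saline rat. In the MGO rat it had 1.26 FPKM in the PFC, and the hippocampus library was listed at 0. The control rat was high, at 79.8 and 32.3 FPKM, and both luteolin libraries were listed at 0. For this gene CMS saline lay with the control and MGO with luteolin. The fitted difference was -5.16 (SE 0.34, limma adjusted p = 0.0332), and -7.16 with a pseudocount of 0.1 (limma adjusted p = 0.1845). Over the alternatives, adjusted p ran from 0.0283 to 0.248. In each of these 4 genes the libraries of both tissues of a rat were on the same side, high or near 0. The test and the rule that named the genes select for this agreement.

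**Figure D2:**
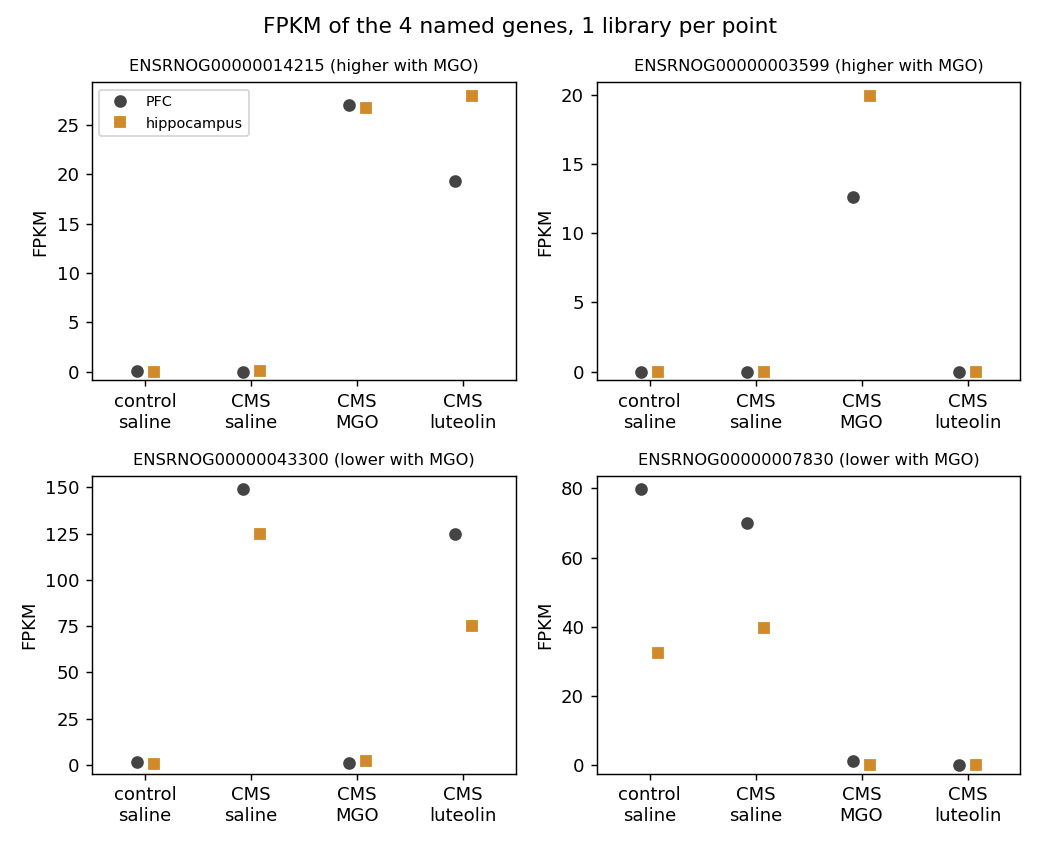
FPKM (y axis, linear) of the 4 named genes in PFC (circles) and hippocampus (squares) of the control rat and the stressed rats given saline, MGO or luteolin, with 1 library per point. ENSRNOG00000003599 is above 0 only in the MGO rat (12.6 and 19.9 FPKM), while the other 3 genes share the MGO level with the control or the luteolin libraries.

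The levels of the control and luteolin libraries were then set beside those of the 17 genes. Of the 8 higher genes, the control was nearer to MGO than to CMS saline in both tissues for 3 genes and nearer to CMS saline in both for 5. The luteolin libraries were nearer to MGO for 4 and to CMS saline for 4. Of the 9 lower genes, the control was nearer to MGO for 5 and to CMS saline for 4, and luteolin nearer to MGO for 4 and to CMS saline for 5. The differences between MGO and CMS saline therefore did not place the control uniformly on either side. No gene among the 17 was split between tissues in this respect, which the test selects for, since its error covers all 8 libraries. Splits were common among genes chosen by fold alone. Of the 53 genes at least 2-fold higher in both tissues, 16 were split for the control and 21 for luteolin. Of the 77 lower by this step, 32 and 24 were split.

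**Figure D3:**
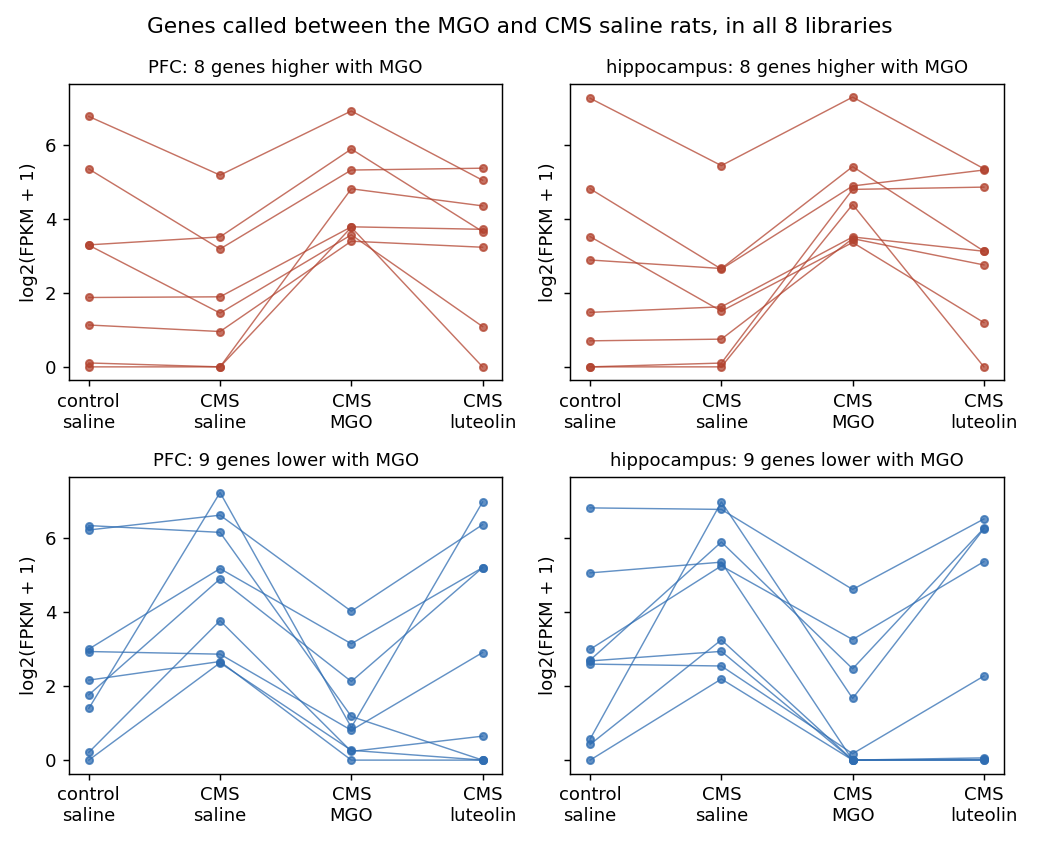
Level on the log2(FPKM + 1) scale (y axis) of the 8 genes higher (red) and the 9 genes lower (blue) with MGO, in PFC and hippocampus of the 4 rats, with 1 line per gene. The step from CMS saline to CMS MGO goes 1 way by selection, and the control and luteolin levels of different genes lie at either end.

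Without a test, a 2-fold step or more in both tissues was found upward with MGO for 53 genes (0.436%) and downward for 77 (0.633%). With a pseudocount of 0.1 the counts were 87 and 102. The 130 genes include the 17 that passed. The 53 higher genes had a median of 2.83 FPKM in the CMS saline and 15.5 FPKM in the MGO library of PFC, and of 2.12 and 16 FPKM in hippocampus. In the control rat their medians were 6.78 FPKM in PFC and 5.65 FPKM in hippocampus, between both sides. The 77 lower genes had medians of 14.4 and 2.18 FPKM in PFC and of 14.8 and 2.75 FPKM in hippocampus for CMS saline and MGO, with 5.08 and 6.96 FPKM in the control. At 4-fold, 19 genes were higher and 23 lower in both tissues, at 8-fold 10 and 9, and at 16-fold 2 and 5. Genes at 0 were frequent among them: 24 of the 130 (18.5%) were listed at 0 in at least 1 of the 4 libraries, against 182 of the 12155 tested genes (1.5%). A tested gene averages at least 1 FPKM, so a 0 tends by itself to give a large step. Among all genes past 2-fold in PFC the share was 11.6%, and among those past 2-fold in hippocampus 13%, with the 130 included in both.

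Some of these genes went between a clear level and almost none in both tissues. With at least 10 FPKM in one rat and under 1 FPKM in the other, 6 genes were high with MGO and low with CMS saline in both tissues, of which 3 had a 0 in the PFC and in the hippocampus library of the CMS saline rat and 2 passed the test. In the other direction 5 genes were high with CMS saline and low with MGO in both tissues, and none of these passed the test (limma). Counting each tissue by itself, with the genes of both included, 28 genes in PFC were high with MGO and low with CMS saline and 37 the other way. In hippocampus the counts were 42 and 30. Most on and off differences were therefore seen in a single tissue of the pair.

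It was next asked which rat stood apart. Among the 53 genes higher with MGO in both tissues, the MGO rat was above all 3 others in both tissues for 32 genes (60.4%), and the CMS saline rat was below all 3 others for 21 (39.6%), with 11 genes counted under both. Among the 77 genes lower with MGO the order turned: the CMS saline rat was above all others in both tissues for 42 (54.5%) and the MGO rat below all others for 22 (28.6%), with 7 under both. In both directions the rat with the high level, MGO or CMS saline, stood apart in the greater number of genes, with no test of this difference. The measure is uneven here, since a rat listed at 0 cannot lie below another rat at 0. Of the 130 genes, 24 had a 0 in at least 1 of the 4 libraries compared. How far this lowers the counts at the low end was not tested. A gene chosen for a difference between these rats tends by that choice to have one of them at an end. For the 3988 genes higher by any amount in both tissues the shares were 24.7% for MGO at the top and 36.1% for CMS saline at the bottom. For the 2774 genes lower by any amount they were 32.7% for CMS saline at the top and 27.3% for MGO at the bottom.

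**Figure D4:**
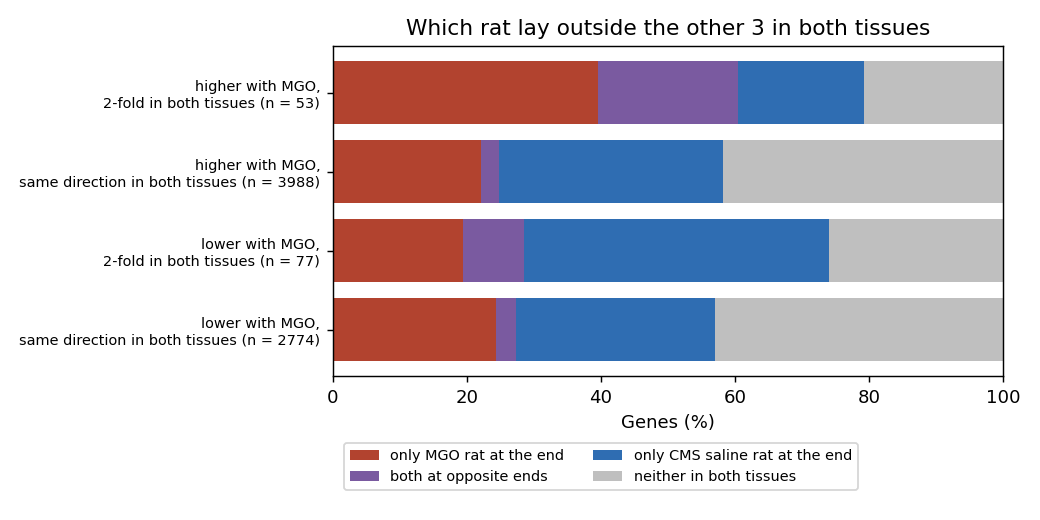
Share of genes (x axis, percent) in which the MGO rat, the CMS saline rat, both or neither lay outside the range of the other 3 rats in both tissues, for genes past 2-fold and for genes that differed by any amount in the same direction. At 2-fold, the MGO rat stood apart for 32 of the 53 higher genes and the CMS saline rat for 42 of the 77 lower genes.

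In single tissues, 791 genes (6.51%) in PFC and 731 (6.01%) in hippocampus were past 2-fold, and the larger part of them in each direction was within 1.5-fold in the other tissue. Over all genes tested, 89.2% were within 1.5-fold in hippocampus and 84.7% in PFC, so the shares that follow lie below those of all genes. Of the 403 genes at least 2-fold higher with MGO in PFC (3.32%), 260 (64.5%) were within 1.5-fold in hippocampus. There, 53 (13.2%) were at least 2-fold higher and as many, 53, at least 2-fold lower. Of the 388 genes lower by this step in PFC (3.19%), 224 (57.7%) were within 1.5-fold in hippocampus, 77 (19.8%) at least 2-fold lower and 47 at least 2-fold higher. Starting from hippocampus, 220 of the 360 higher genes (61.1%) and 201 of the 371 lower genes (54.2%) were within 1.5-fold in PFC, where the 360 and 371 genes are 2.96% and 3.05% of those tested. The share that was also past 2-fold in the same direction was larger for larger steps, from 9.29% of the genes 2-fold to 4-fold higher in PFC to 29.8% of those at least 8-fold higher, a difference that was not tested. Of the 47 genes at least 8-fold higher in PFC, 14 (29.8%) were at least 2-fold higher in hippocampus and 6 at least 2-fold lower. Of the 50 genes at least 8-fold lower in PFC, 16 (32%) also fell short of CMS saline by 2-fold or more in hippocampus and 9 exceeded it by 2-fold or more. Opposite steps were also present at the top of the range, with 7 genes at least 16-fold apart in opposite directions and 7 in the same direction.

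Across the whole range of expression, the direction in both tissues was the same for 55.8% of the 12155 genes. The share was 53.2% among genes with a mean of 1 to 5 FPKM, 56.1% from 5 to 20 FPKM, 59.2% from 20 to 100 FPKM and 57.5% at 100 FPKM or more. Spearman's rho between the differences in PFC and hippocampus was 0.14, 0.159, 0.195 and 0.247 in these 4 classes of 4224, 4828, 2531 and 572 genes, and Pearson's r was 0.121, 0.0518, 0.12 and -0.0314. Genes are not independent replicates, and all points share the same 2 rats and the same pair of description codes.

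The share of genes at least 2-fold apart was similar across levels of expression. In PFC it was 6.46%, 6.61%, 6.76% and 4.90% from the lowest to the highest class, and in hippocampus 5.63%, 6.26%, 6.36% and 5.25%. The bulk of the genes behaved otherwise. In hippocampus the robust SD of the difference fell from 0.245 in the lowest class to 0.143 in the highest, whereas in PFC it was 0.331 in the lowest and 0.399 in the highest. The median difference in PFC also changed sign with level, from 0.0966 in the lowest class to -0.138 in the highest. In hippocampus the medians were -0.0174 and 0.032. Among the 572 most abundant genes in PFC, the pairs of libraries that include CMS saline had robust SDs of 0.399 to 0.427 and those without it 0.12 to 0.253. In PFC, the broad spread of abundant genes was thus seen in the pairs with the CMS saline library. The description code of that library also carries an extra string of letters. Both CMS saline libraries have another code than the rest, and in hippocampus MGO against CMS saline had a robust SD of 0.143 in this class. The part of the CMS saline PFC library, its rat or its code in the PFC differences was not tested.

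**Figure D5:**
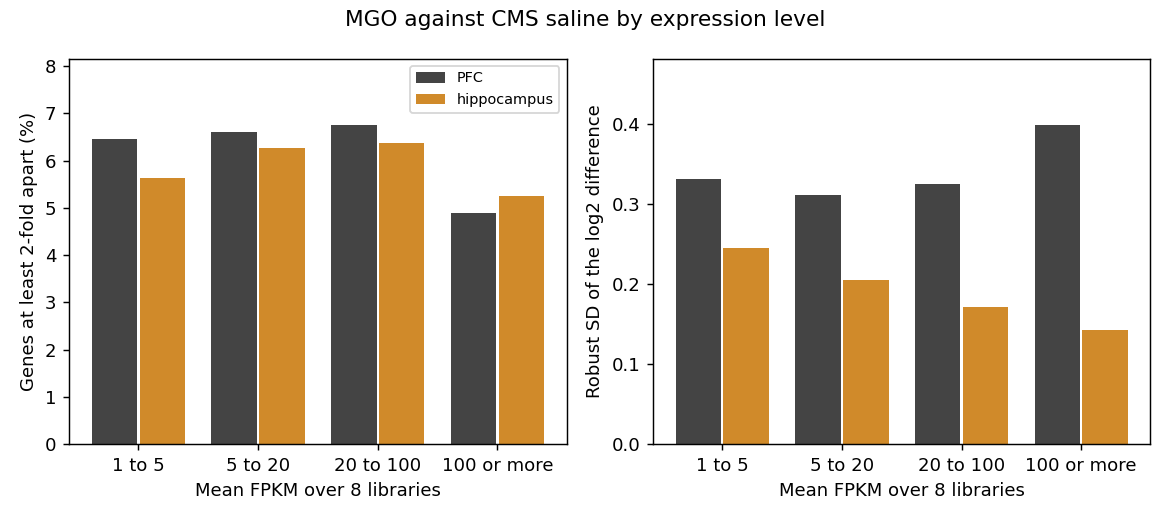
Left, share of genes at least 2-fold apart between MGO and CMS saline (percent), and right, robust SD of the log2(FPKM + 1) difference, by class of mean FPKM (x axis) in PFC (dark) and hippocampus (orange). The shares lie between 4.90% and 6.76% in every class, while the robust SD at 100 FPKM or more is 0.399 in PFC and 0.143 in hippocampus.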

How the data were processed

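The deposited table holds 1 FPKM value per gene and library. The unit was inferred from the tools and the values, since neither header nor labels state it. HISAT2 2.0.4, StringTie 1.2.4, FastQC 0.11.5 and, as genome build, Rnor_6.0 (rn6) are listed without roles, per the submitters' processing notes. The annotation release is not given in the sources used here. RNA came from about 30 mg of tissue, per the labels' protocols.

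Values were analysed as log2(FPKM + 1) over genes averaging 1 FPKM or more, a scale that understates differences of low genes. limma 3.58.1 in R 4.3.3 was fitted to all 8 libraries (two-sided, trend, tissue and treatment, 3 residual degrees of freedom, Benjamini-Hochberg over 12155 genes). The pairing of PFC and hippocampus comes from the protocol, which takes both from each rat it names. The fit was tested on simulated data of 12155 genes for MGO against CMS saline. It recovered 31% of 100 genes shifted by 1 and 81% of 100 shifted by 2 (log2), with 5 false calls and 0 wrong signs. The simulated libraries had independent normal noise with the residual spread of each gene. They held no differences between rats besides the shifts, and no library that stood apart. These shares therefore do not measure how the fit performs on the real libraries. Genes past 2-fold (1 on the log2 scale) were counted without a test, with Python 3.11.15, numpy 2.4.6, pandas 2.3.3 and scipy 1.17.1. Relative depth came from the most frequent ratio of values under 0.2 FPKM of the same gene.

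The comparison and lists were chosen with earlier results of these data known. The 33 gene lists and the rule for named genes needed symbols. With 0 IDs matched, the rule named 2 IDs per direction: genes that passed the test, with the largest smaller-of-both difference. Alternatives were the pseudocount, scaling, filter, fold, tissue block, trend and the libraries in the fit.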

Additional observations from a re-analysis of the deposited data

Results flagged for a closer look

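PFC and hippocampus went opposite ways for 100 genes (0.823% of those tested), which were at least 2-fold higher with MGO in one tissue and at least 2-fold lower in the other. Of these, 53 were higher in PFC and 47 higher in hippocampus. In the same direction, 130 genes (1.07%) were past 2-fold in both tissues. With 1 library per tissue and treatment, this difference between tissues was not tested.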

How the results depend on the processing

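The number passing limma was 11 with no filter on low values (5 of the 17 among them), 9 with a mean of at least 5 FPKM (9 of the 11 tested), 9 with no tissue block (7 of the 17), 7 without the CMS luteolin hippocampus library and 7 without both luteolin libraries (2 of the 17 in each), and 0 with only the 4 libraries compared. It was 0 without both control libraries, an alternative chosen after seeing the data. It was 14 with a pseudocount of 0.1 (11 of the 17 among them), 17 with median-ratio size factors (16 of the 17) and 17 without the trend (the same 17). The fits with fewer libraries have fewer residual degrees of freedom. The other causes were not tested. The 2-fold count in PFC was 518 with a mean of at least 5 FPKM, where fewer genes are tested. At 1.5-fold the counts were 1863 in PFC, 1314 in hippocampus and 300 in the same direction in both. With median-ratio size factors, PFC had 368 higher and 430 lower genes in place of 403 and 388. The split leaned the other way with a pseudocount of 0.1, to 630 and 493 in PFC, and the genes past 2-fold in both tissues were then 87 higher and 102 lower in place of 53 and 77. The labels used here give no replicate numbers, so the tissue block is the only pairing fitted. Depth limits low genes to an extent that was not quantified, and 1 rat per treatment limits every value.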
